A study of Mus musculus with 8 samples.

Results

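The mitochondrial respiratory chain and the ATP synthase were followed through the mRNAs of their nuclear-encoded subunits in mouse dorsal root ganglia, the clusters of sensory neuron cell bodies and glia beside the spinal cord. Members were taken by name: every row whose symbol begins with Nduf followed by a, b, c, s or v and a digit (complex I), with Uqcr (complex III), with Cox4 to Cox8 followed by a, b or c (complex IV), or with Atp5 (ATP synthase). This gave 78 of the 21878 symbols, of which 37 belong by name to complex I, 8 to complex III, 16 to complex IV and 17 to the ATP synthase. The name rule leaves out Cox4i1, Cyc1 and Ndufab1, which encode true subunits. It takes in Ndufa4, whose protein is now placed with complex IV, its relative Ndufa4l2, the supercomplex factor Cox7a2l, the coupling factor Atp5s and the Atp5sl gene.

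Each group had 2 libraries of dorsal root ganglia of lumbar levels 4 and 5 from C57BL/6 mice, collected 3 days after surgery. The dKO SNI and dKO sham groups were Advillin-Cre:Myh9/10 double-floxed mice after the sciatic nerve was cut (SNI) or after a sham operation. The WT SNI and WT sham groups were Myh9/10 double-floxed mice without Cre after the same operations. All 4 groups therefore carried floxed Myh9 and Myh10, whose products are non-muscle myosin II motor proteins, and the WT groups had no Cre control. Advillin-Cre acts mainly in sensory neurons, so Myh9 and Myh10 of glia, vessels and immune cells in the ganglion are not its main target. The sources used here give neither age nor sex nor the number of animals per library. Whether both libraries of a group stem from different animals is not stated either, and p-values therefore cover only the spread between libraries, which may be technical.

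The neuronal transcripts Uchl1, Tubb3 and Snap25 were present in every library, with Uchl1 between 834 and 1722 FPKM, as the labelled tissue requires. FPKM is fragments per length of transcript and depth of library. The deposited values summed to between 278310 and 339920 FPKM per library, replicates correlated at r = 0.984 to 0.989 on the log2(FPKM + 1) scale, and the read depth behind them is unknown. Myh10 had 5.31 and 4.12 FPKM in dKO SNI, 12.2 and 14.4 in dKO sham, 13.8 and 10.4 in WT SNI and 18.1 and 23.5 in WT sham ganglia. Myh9 had 24.6 and 24.4 FPKM in dKO SNI, 10.9 and 12.1 in dKO sham, 30.8 and 29.7 in WT SNI and 27.2 and 31.6 in WT sham ganglia. Libraries stood apart in 3 ways. The Y-linked gene Ddx3y had 13.6 and 13.9 FPKM in dKO SNI and 8.05 and 8.12 FPKM in WT sham libraries but at most 0.0109 FPKM in dKO sham and WT SNI libraries, so each comparison of 2 single groups below, and the interaction of injury and genotype, also compares libraries with and without Y-linked transcripts, and these cannot be told apart. WT sham replicate 2 held muscle transcripts, with 138 FPKM of the muscle creatine kinase gene Ckm against at most 3.17 FPKM in the other 7 libraries. The 8 erythroid markers summed to 7831 and 3150 FPKM in dKO SNI, 2060 and 5290 in dKO sham, 2006 and 5232 in WT SNI and 1378 and 1302 in WT sham libraries, so replicates of 3 groups differed in erythroid transcripts, and the part of these was not tested.

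Complex I takes electrons from NADH, complex III passes them from ubiquinol to cytochrome c, and complex IV hands them to oxygen; the proton gradient they build drives the ATP synthase. Each complex joins a few large catalytic subunits to many small accessory proteins, and its nuclear subunits are made in the cytosol and imported. Sensory neurons with long axons depend on this supply of ATP. Many of these genes are known targets of the transcription factors NRF1 and YY1 and of the estrogen-related receptors.

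Promoter windows that run from 250 bases before to 50 bases after the RefSeq start site (GRCm38.p6) were matched for 66 of the 78 genes. The NRF1 core CGCATGCG, which reads the same on both strands, lay in 9 of the 66 windows (13.6%), and 2.07% of the windows of all 27025 genes held it. The YY1 core AAGATGGCG, searched on both strands, lay in 8 windows (12.1%, against 1.64% of all genes), and the estrogen-related receptor motif TCAAGGTCA lay in 1 (1.52%, against 0.466%). Only Atp5j held more than 1 of the 3 motifs, and no matches of different motifs overlapped. The stretches around the NRF1 core are shown for 5 genes that behaved differently after injury, with the core in capitals. Atp5l, Atp5k and Atp5g2 rose in dKO ganglia after injury, Ndufa8 fell and Cox6a1 passed the test in neither direction, so the same letters lay before the RefSeq start site of genes of each kind. The stretches of Atp5g2 and Ndufa8 lie within the GENCODE M21 gene. That of Atp5k lies partly within it and reaches past its start at position 108434448. A match describes the letters only.
Atp5l (chr9:44920940-44920992, minus strand): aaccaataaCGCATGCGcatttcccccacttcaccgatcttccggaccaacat
Atp5k (chr5:108434430-108434459, minus strand): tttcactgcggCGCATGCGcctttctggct
Atp5g2 (chr15:102671070-102671099, minus strand): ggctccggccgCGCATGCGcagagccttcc
Ndufa8 (chr2:36049339-36049358, minus strand): gtcgctggagaCGCATGCGc
Cox6a1 (chr5:115349076-115349155, minus strand): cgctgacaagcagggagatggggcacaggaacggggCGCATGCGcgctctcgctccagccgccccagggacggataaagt

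In all libraries together the respiratory genes were among the abundant mRNAs of the ganglion. They made up 4.19% and 4.89% of all FPKM in dKO SNI, 3.65% and 4.15% in dKO sham, 3.44% and 3.83% in WT SNI and 3.72% and 3.29% in WT sham libraries. Levels, which are means over the 8 libraries per transcript length, differed between complexes: the median gene had 167 FPKM in complex IV, 136 in the ATP synthase, 90.2 in complex III and 79.9 in complex I. The 4 highest members were Cox8a (655 FPKM), Cox7c (637), Cox6b1 (621) and Ndufa4 (619), all small proteins of complex IV by current placement. The ranges of these 4 over the libraries overlapped, so their order is not set beyond the spread. Atp5b (446 FPKM), the catalytic beta subunit, led the ATP synthase, and Uqcrh (370.5 FPKM), the hinge protein, led complex III. The core subunits of complex I were low, for example Ndufs1 (39.5 FPKM), which carries iron-sulfur clusters. Cox7b2 reached at most 0.387 FPKM and Cox8c was listed at 0 in every library; these 2 did not reach 1 FPKM in 2 libraries and were not tested, which left 76.

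**Figure D1:**
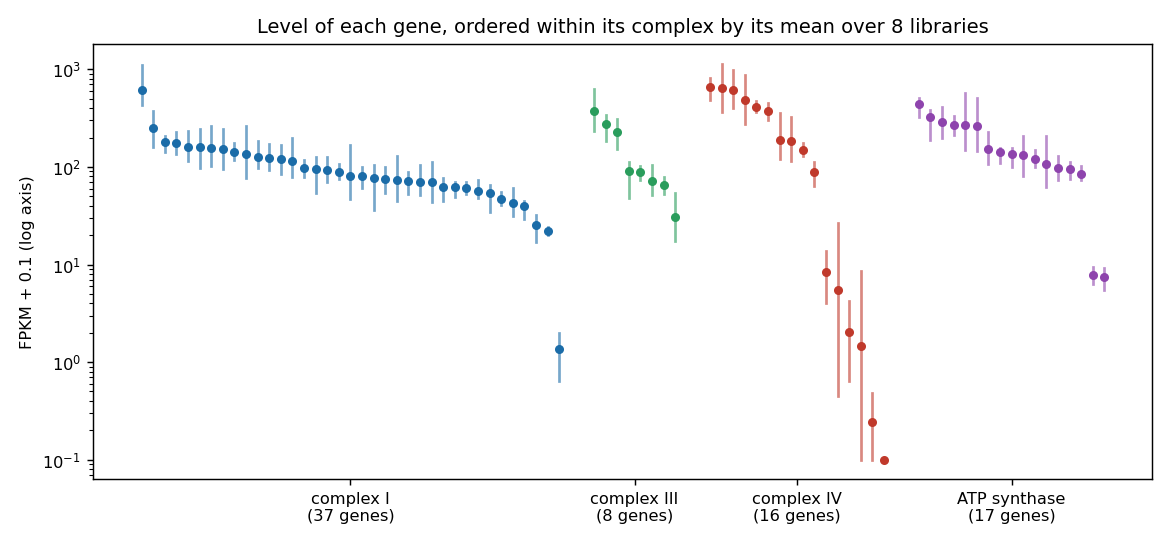
Level of each of the 78 genes in FPKM + 0.1 on a log axis, grouped by complex and ordered by the mean over 8 libraries; points are means and lines run over the range of the 8 libraries. Complex IV holds both the highest genes, such as Cox8a at 655 FPKM, and the tissue-restricted isoforms near 0.

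After axotomy in dKO mice, 22 of the 23 genes that rose encode proteins under 150 residues and 7 of the 9 that fell encode proteins over 300 residues. Short genes in general rose as well: 43.1% of the 812 other genes under 150 residues, against 46.8% of the 47 short members. Of the 9242 other genes over 300 residues 27.8% fell, against 70.0% of the 10 long members. In dKO SNI against dKO sham ganglia, 23 of the 76 genes rose and 9 fell at an adjusted p under 0.05 (limma on log2(FPKM + 1), Benjamini-Hochberg over all 12884 genes tested, two-sided). Of all genes tested, 23.8% rose and 24.6% fell, so the share of respiratory genes that rose (30.3%) was near the background and the share that fell (11.8%) was below it. The median change was 0.27 on the log2(FPKM + 1) scale, against −0.00 for all genes. The 2 libraries of each group did not overlap for 56 of the 76 genes, against 75.5% of all genes.

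Within the ATP synthase, 5 of 17 genes rose and 1 fell (median 0.26). All 3 small membrane subunits, which help to hold dimers together, rose: Atp5l (subunit g), Atp5j2 (subunit f) and Atp5k (subunit e). Atp5l (chr9:44912557-44920742, minus strand, GRCm38, as all gene positions here) had 394 and 577 FPKM in dKO SNI ganglia and 159 and 243 in dKO sham ganglia, against 191 and 263 in WT SNI ganglia and 171 and 150.1 in WT sham ganglia. Both dKO SNI libraries stood above all others, and the change was 1.27 ± 0.26 (SE; adjusted p = 0.0037). Atp5j2 had 361 and 504 FPKM in dKO SNI ganglia and 180.1 and 274 in dKO sham ganglia, against 192 and 242 in WT SNI ganglia and 193 and 145 in WT sham ganglia. It changed by 0.94 ± 0.26 and Atp5k by 0.56 ± 0.21 (adjusted p = 0.014 and 0.048). Atp5e (chr2:174461072-174464105, minus strand), the small epsilon subunit of the F1 head, had 162 and 209 FPKM in dKO SNI ganglia, 66.0 and 112 in dKO sham ganglia, 81.1 and 102 in WT SNI ganglia and 61.6 and 72.9 in WT sham ganglia. It rose by 1.09 ± 0.25 (SE; adjusted p = 0.0061). The large alpha subunit moved the other way. Atp5a1 had 247 and 189.5 FPKM in dKO SNI ganglia and 368 and 375 in dKO sham ganglia, against 329 and 325 in WT SNI ganglia and 384 and 377 in WT sham ganglia. It fell by 0.78 ± 0.17 (SE; adjusted p = 0.0051) on that scale, with both dKO SNI libraries below the other 6. Its partner in the F1 head, Atp5b, had 395 and 325 FPKM in dKO SNI ganglia, 455 and 504 in dKO sham ganglia, 479 and 437 in WT SNI ganglia and 485 and 489 in WT sham ganglia (−0.42 ± 0.17 (SE; adjusted p = 0.073)). None of the 4 peripheral stalk genes (Atp5f1, Atp5h, Atp5j and Atp5o) passed, with changes of 0.14 to 0.50.

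Of the 3 genes for the c subunit, which differ only in the import sequence that is cut off, Atp5g2 rose by 0.48 ± 0.18 (SE; adjusted p = 0.045), while Atp5g1 changed by −0.08 ± 0.18 (SE; adjusted p = 0.72) and Atp5g3 by −0.22 ± 0.16 (SE; adjusted p = 0.29). Atp5g2 made up 34.8% and 40.7% of the FPKM of the 3 genes in dKO SNI libraries, against 26.7% and 28.8% in dKO sham, 28.8% and 30.9% in WT SNI and 25.7% and 24.8% in WT sham libraries. The dKO SNI libraries thus had the 2 highest Atp5g2 shares, with 119 and 129 FPKM in dKO SNI ganglia and 76.2 and 103 in dKO sham ganglia, against 90.4 and 104 in WT SNI ganglia and 85.4 and 73.4 in WT sham ganglia. Atp5g1 had 84.1 and 78.4 FPKM in dKO SNI ganglia and 73.2 and 101 in dKO sham ganglia, against 77.7 and 90.9 in WT SNI ganglia and 89.7 and 78.6 in WT sham ganglia. Atp5g3 had 139.9 and 110.1 FPKM in dKO SNI ganglia and 136 and 153 in dKO sham ganglia, against 146 and 143 in WT SNI ganglia and 158 and 144 in WT sham ganglia. The summed level of the 3 genes overlapped between groups, at 343 and 318 FPKM in dKO SNI and 285 and 358 FPKM in dKO sham libraries.

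**Figure D2:**
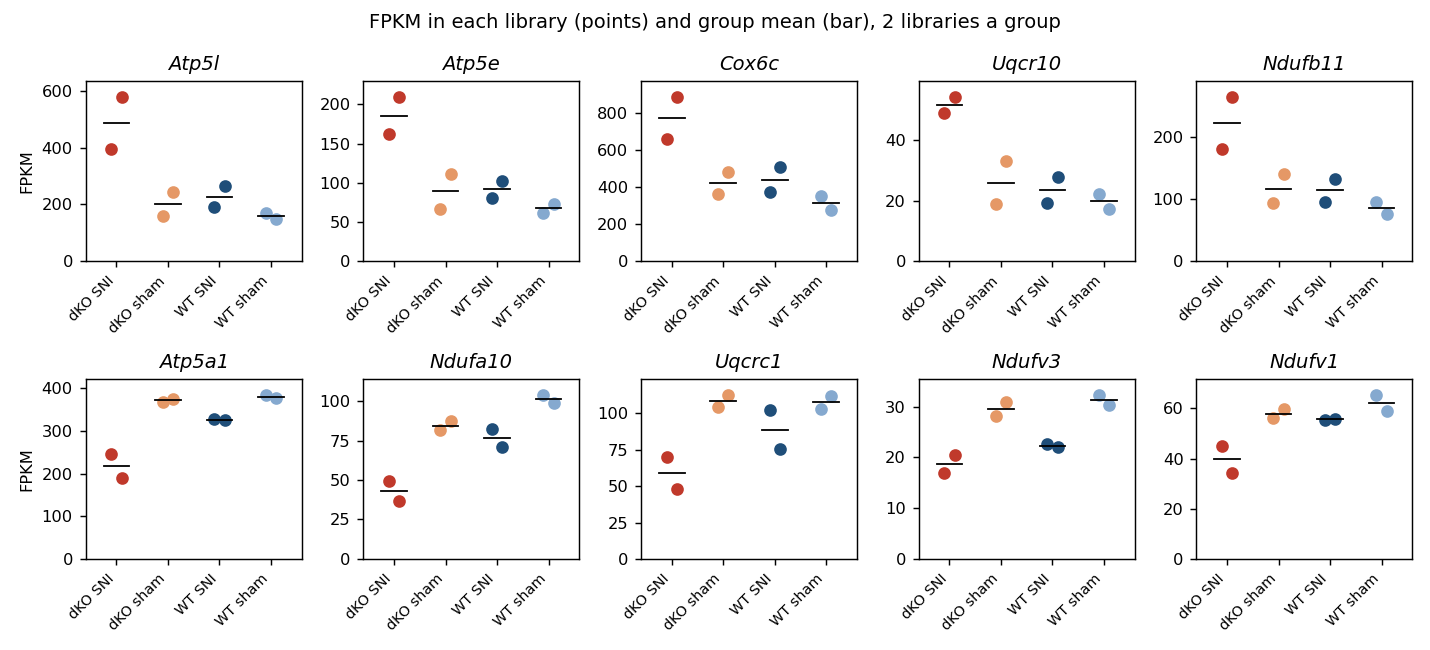
FPKM of 10 genes in each of the 8 libraries (points, 2 a group) with the group mean (bar); the upper row shows genes that rose and the lower row genes that fell in dKO SNI against dKO sham ganglia, chosen after their values were seen. The dKO SNI libraries are the highest for the 5 upper genes and the lowest for the 5 lower genes.

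In complex IV, 6 of 14 tested genes rose and none fell (median 0.57, limma; 7 had an unadjusted p under 0.05). They were Cox6c, Cox7c, Cox7b, Cox7a2 and Cox6b1, small subunits that surround the catalytic core made by mitochondrial DNA, and Cox6b2, known as a testis isoform. Cox6c had 657 and 884 FPKM in dKO SNI ganglia and 363 and 479 in dKO sham ganglia, against 371 and 506 in WT SNI ganglia and 350.0 and 278 in WT sham ganglia. It rose by 0.87 ± 0.24 (SE; adjusted p = 0.016). Cox7c, one of the most abundant members, had 838 and 1142 FPKM in dKO SNI ganglia, 487 and 589 in dKO sham ganglia, 486 and 684 in WT SNI ganglia and 502 and 367 in WT sham ganglia. Its change was 0.87 ± 0.25 (SE; adjusted p = 0.019). Cox7b, on the X chromosome, had 243 and 327 FPKM in dKO SNI ganglia, 146 and 177 in dKO sham ganglia, 136 and 186 in WT SNI ganglia and 149.7 and 114 in WT sham ganglia (0.81 ± 0.22 (SE; adjusted p = 0.016)). For these 3 genes both dKO SNI libraries exceeded the other 6. Cox6b2 was low throughout, with 4.13 and 3.31 FPKM in dKO SNI ganglia, 1.42 and 2.05 in dKO sham ganglia, 0.994 and 2.07 in WT SNI ganglia and 1.09 and 0.536 in WT sham ganglia (0.79 ± 0.24 (SE; adjusted p = 0.021)). The other common subunits Cox5a, Cox5b, Cox6a1 and Cox8a did not pass, with changes of 0.03, 0.32, 0.06 and 0.29. Cox6a1 overlapped between the 2 groups, with 467 and 412 FPKM in dKO SNI ganglia and 377 and 469.8 in dKO sham ganglia, against 419 and 385 in WT SNI ganglia and 415 and 365 in WT sham ganglia. Cox8a had 759 and 822 FPKM in dKO SNI ganglia and 597 and 695 in dKO sham ganglia, against 607 and 686 in WT SNI ganglia and 585 and 488 in WT sham ganglia, so both dKO SNI libraries were the highest although the gene did not pass. Ndufa4, counted with complex I by its name, had 780.4 and 1098 FPKM in dKO SNI ganglia, 440.2 and 598 in dKO sham ganglia, 463 and 644 in WT SNI ganglia and 498 and 429 in WT sham ganglia (0.85 ± 0.25 (SE; adjusted p = 0.02)).

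In complex III, 3 of the 5 small subunits rose and 1 of the 3 large ones fell (median 0.20 over the 8 genes). Uqcr10 (chr11:4701973-4704342, minus strand), a small membrane subunit, had 49.2 and 54.2 FPKM in dKO SNI ganglia and 18.8 and 33.3 in dKO sham ganglia, against 19.2 and 27.8 in WT SNI ganglia and 22.3 and 17.4 in WT sham ganglia. It rose by 1.01 ± 0.26 (SE; adjusted p = 0.011). Uqcrq, another small subunit, changed by 0.60 ± 0.17 (SE; adjusted p = 0.017) and the hinge gene Uqcrh, with 445 and 634 FPKM in dKO SNI ganglia, 309 and 381 in dKO sham ganglia, 292 and 367 in WT SNI ganglia and 299 and 236 in WT sham ganglia, by 0.63 ± 0.23 (SE; adjusted p = 0.046). Uqcrc1 (chr9:108936633-108949623, plus strand), the large core 1 protein on the matrix side, had 69.8 and 48.3 FPKM in dKO SNI ganglia and 104 and 113 in dKO sham ganglia, against 102 and 75.2 in WT SNI ganglia and 103 and 112 in WT sham ganglia. It fell by 0.89 ± 0.20 (SE; adjusted p = 0.0062), and the dKO SNI libraries were the 2 lowest. Its partner Uqcrc2 and the Rieske iron-sulfur protein gene Uqcrfs1 gave 0.13 ± 0.16 (SE; adjusted p = 0.53) and −0.29 ± 0.15 (SE; adjusted p = 0.14).

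In complex I, 9 of 37 genes rose and 7 fell (median 0.26). Of the 7 core subunits, which carry the electron path from NADH, none rose and 3 fell (3 had an unadjusted p under 0.05). Among them, Ndufv1, the subunit that binds NADH, changed by −0.54 ± 0.15 (SE; adjusted p = 0.015) and Ndufs1 by −0.45 ± 0.13 (SE; adjusted p = 0.018). Ndufv1 had 44.9 and 34.4 FPKM in dKO SNI ganglia, against 56.0 and 59.6 in dKO sham ganglia. Of the 28 accessory subunits 8 rose and 4 fell. Ndufa10 (chr1:92439010-92473860, minus strand) had 49.5 and 36.4 FPKM in dKO SNI ganglia and 81.6 and 87.2 in dKO sham ganglia, against 82.4 and 70.8 in WT SNI ganglia and 104 and 98.7 in WT sham ganglia. It fell by 0.97 ± 0.17 (SE; adjusted p = 0.0015). It was the largest fall of any member, and both dKO SNI values were below the other 6. Ndufv3 (chr17:31520115-31531331, plus strand) had 17.0 and 20.4 FPKM in dKO SNI ganglia and 28.2 and 30.9 in dKO sham ganglia, against 22.6 and 21.98 in WT SNI ganglia and 32.3 and 30.4 in WT sham ganglia (−0.63 ± 0.13 (SE; adjusted p = 0.004)). The accessory genes Ndufa8 (−0.62) and Ndufb10 (−0.43) also fell.

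The accessory genes that rose were Ndufa2 (1.03), Ndufb11 (0.92), Ndufb2 (0.78), Ndufa1 (0.72), Ndufb4 (0.61), Ndufa13 (0.59), Ndufb7 (0.56) and Ndufa7 (0.51), with adjusted p from 0.016 to 0.047. Ndufb11 (chrX:20615326-20617619, minus strand), a membrane arm subunit, had 182 and 265 FPKM in dKO SNI ganglia and 93.4 and 141 in dKO sham ganglia, against 96.2 and 133 in WT SNI ganglia and 96.1 and 76.4 in WT sham ganglia. Ndufa2 had 101 and 166 FPKM in dKO SNI ganglia, 49.4 and 80.1 in dKO sham ganglia, 48.8 and 81.9 in WT SNI ganglia and 65.3 and 47.0 in WT sham ganglia. In each of these 2 genes the dKO SNI libraries were the highest, with replicate 2 above replicate 1.

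Single libraries weighed on these counts. Fewer members rose without dKO SNI replicate 2 or dKO sham replicate 1, and fewer fell without dKO SNI replicate 2 or dKO sham replicate 2. Fewer of all genes tested rose and fell under each of these omissions too. Without dKO SNI replicate 2 or dKO sham replicate 1, the rises of all genes dropped by a smaller part than those of members. With single libraries left out, medians ranged from 0.091 to 0.37 (complex I), 0.18 to 0.32 (complex III), 0.38 to 0.71 (complex IV) and 0.12 to 0.42 (ATP synthase). Atp5l, Atp5e, Atp5a1, Ndufa10, Ndufv3 and Uqcrc1 passed whichever of the 4 libraries compared was left out. Scaling of the libraries changed the balance too, for all genes as well as members. With each library set to the same FPKM total, 15 members rose and 13 fell, against 2277 and 4199 of all 12884 genes. This scaling put the median of all genes at −0.15 here and at −0.13 in dKO SNI against WT SNI. After quantile normalization 11 members rose and 11 fell, against 2940 and 3305 of all 12884 genes.

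**Figure D3:**
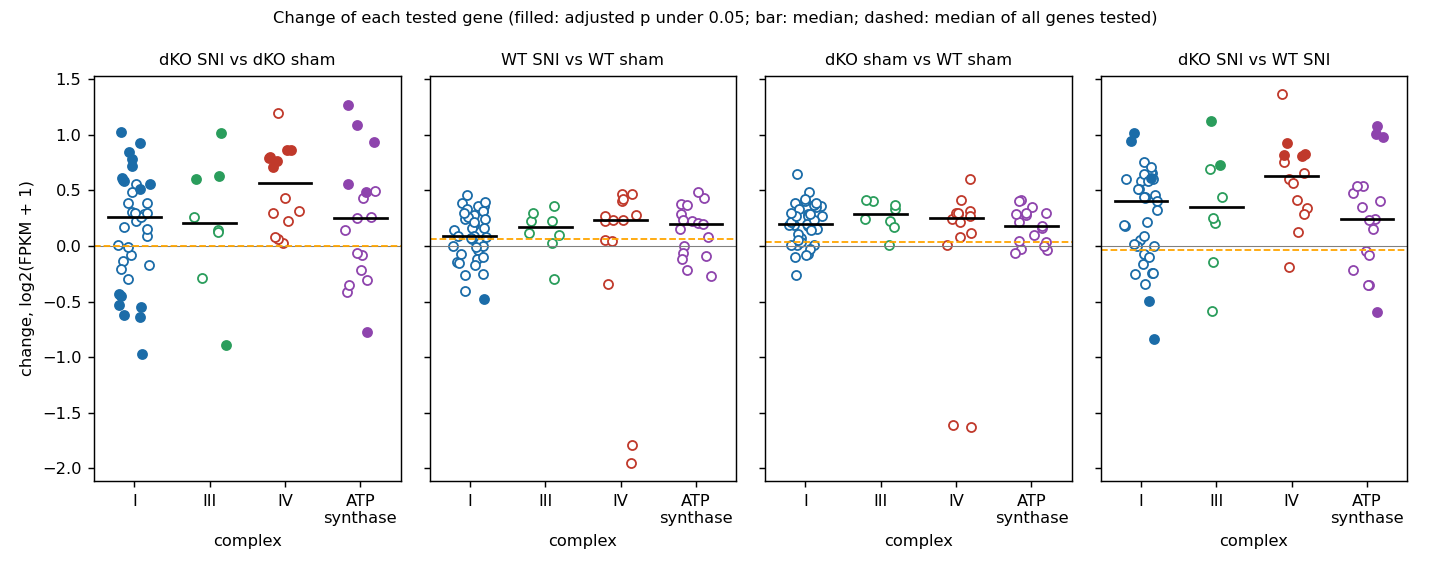
Change on the log2(FPKM + 1) scale of each of the 76 tested genes in the 4 comparisons of 2 groups, by complex; filled points passed an adjusted p of 0.05, black bars are medians of a complex and the dashed line is the median of all genes tested. In dKO SNI against dKO sham ganglia complex IV has no gene below 0 and complexes I and III and the ATP synthase have genes that passed on both sides; the 2 points under −1.5 with WT sham ganglia are Cox6a2 and Cox8b.

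The same axotomy in WT mice called 1 member. In WT SNI against WT sham ganglia none of the 76 genes rose and Ndufv3 fell (limma; 4 members had an unadjusted p under 0.05), while 13.6% of all genes rose and 9.38% fell. Ndufv3 changed by −0.47 ± 0.13 (SE, limma adjusted p = 0.031), with the values given above. This call was lost when any 1 of the 4 libraries compared was left out. Leaving out WT sham replicate 1 leaves replicate 2, the library with muscle transcripts, as the only WT sham library. Uqcrb, a small complex III subunit, had 228 and 309.9 FPKM in dKO SNI ganglia and 266 and 217 in dKO sham ganglia, against 238 and 224 in WT SNI ganglia and 209 and 154 in WT sham ganglia. It changed by 0.36 ± 0.21 (SE; adjusted p = 0.24). Atp5sl had 6.55 and 6.38 FPKM in dKO SNI ganglia and 7.74 and 9.42 in dKO sham ganglia, against 7.72 and 6.20 in WT SNI ganglia and 8.91 and 8.16 in WT sham ganglia. It changed by −0.27 ± 0.14 (SE; adjusted p = 0.21). The groups did not overlap for 27 of 76 members, against 69.0% of all genes. Medians were 0.09 for complex I, 0.17 for complex III, 0.23 for complex IV and 0.20 for the ATP synthase, against 0.07 for all genes.

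The members called in dKO mice gave smaller changes of the same sign in WT mice, though none but Ndufv3 passed there. Atp5l changed by 0.48 ± 0.26 (SE; adjusted p = 0.2), Cox6c by 0.47 ± 0.24 (SE; adjusted p = 0.18) and Ndufa10 by −0.40 ± 0.17 (SE; adjusted p = 0.11). All 23 genes that rose in dKO mice were above 0 in WT mice and all 9 that fell were below 0. Of the 76, 65 had the same sign in both. These injury comparisons share no library, but members are not independent and the share of all genes with the same sign is not given here. In both comparisons the change of members went with coding length (Spearman's rho −0.54 in WT and −0.70 in dKO mice). The difference between the injury responses, tested as an interaction, called no member in either direction (limma, 3 had an unadjusted p under 0.05). Of all genes 0.0466% and 0.00776% passed with a larger and a smaller response in dKO mice. The omission of WT sham replicate 1 rests here too on the library with muscle transcripts. The interaction for Atp5l was 0.79 ± 0.37 (SE; adjusted p = 0.36) and for Ndufa10 −0.57 ± 0.24 (SE; adjusted p = 0.32), so a larger response in dKO than in WT ganglia was not shown for any member.

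Averaged over both genotypes, SNI against sham ganglia had 25 members higher and 10 lower, against 29.5% and 25.5% of all genes. Libraries with Y-linked transcripts stood on both sides of this average, which balanced them only in part. Ddx3y was higher in dKO SNI (13.6 and 13.9 FPKM) than in WT sham libraries (8.05 and 8.12 FPKM). The medians were 0.18 for complex I, 0.25 for complex III, 0.31 for complex IV and 0.21 for the ATP synthase. Atp5l changed by 0.88 ± 0.18 (SE; adjusted p = 0.0033), Ndufb11 by 0.66 ± 0.18 (SE; adjusted p = 0.013), Ndufa10 by −0.69 ± 0.12 (SE; adjusted p = 0.0011) and Ndufv3 by −0.55 ± 0.09 (SE; adjusted p = 0.001). Fewer members were called higher without dKO SNI replicate 2, dKO sham replicate 1, WT SNI replicate 2 or WT sham replicate 2, the library with muscle transcripts. Fewer were called lower without dKO SNI replicate 2, dKO sham replicate 2 or WT sham replicate 2. Fewer of all genes tested passed under these omissions too. In the omissions with fewer members higher, calls of all genes as higher dropped by a smaller part. With single libraries left out, medians ranged from 0.092 to 0.26 (complex I), 0.14 to 0.36 (complex III), 0.23 to 0.38 (complex IV) and 0.16 to 0.32 (ATP synthase). Among the genes called under every omission, Cox6c, Cox6b2, Ndufa1, Atp5e and Atp5l rose and Atp5a1, Ndufa10, Ndufv3 and Uqcrc1 fell.

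Genotype was compared within each operation. In dKO sham against WT sham ganglia no member passed in either direction (limma, 5 had an unadjusted p under 0.05). Of all genes 0.0931% passed as higher and 0.0621% as lower. Without WT sham replicate 1, the baseline is replicate 2 alone, the library with muscle transcripts. The groups did not overlap for 25 of 76 members, against 46.1% of all genes. Complex medians lay between 0.18 and 0.29.

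In dKO SNI against WT SNI ganglia 12 members were higher and 3 lower, against 10.7% and 13.4% of all genes. The groups did not overlap for 57 of the 76, against 68.3% of all genes. Uqcr10, with 49.2 and 54.2 FPKM in dKO SNI ganglia, against 19.2 and 27.8 in WT SNI ganglia, changed by 1.12 ± 0.26 (SE; adjusted p = 0.018), and Atp5l, Ndufa2, Atp5e and Atp5j2 by 1.08, 1.02, 1.01 and 0.98. Complex IV contributed Cox6b2, Cox7a2, Cox7b and Cox6c, and the others were Ndufb11, Ndufa7 and Uqcrq. The 3 lower genes were Ndufa10 (−0.83 ± 0.17 (SE; adjusted p = 0.013)), Atp5a1 (−0.59 ± 0.17 (SE; adjusted p = 0.035)) and Ndufv1 (−0.49 ± 0.15 (SE; adjusted p = 0.043)). Leaving out dKO SNI replicate 2 or WT SNI replicate 1 took away the calls of members and most calls of all genes tested. The loss was thus not particular to the members. With no filter on low values 1 member was higher and 1 lower, against 884 and 1008 of the 17956 genes then tested. This comparison shares the dKO SNI libraries with the injury comparison in dKO mice.

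Averaged over both operations, dKO against WT ganglia had 17 members higher and 1 lower, Ndufa10 (−0.55 ± 0.12 (SE; adjusted p = 0.018)), against 11.8% and 10.4% of all genes. Cox6b2, at 0.76 ± 0.17, and Uqcr10, at 0.73 ± 0.18, had the 2 largest changes above 0 (adjusted p = 0.018 and 0.025). Calls of members as higher were lost or nearly lost without dKO sham replicate 2, WT SNI replicate 1, dKO SNI replicate 2 or WT sham replicate 2. Calls of all genes tested also dropped steeply under each of these omissions. More members were called higher without dKO SNI replicate 1 or WT SNI replicate 2. With single libraries left out, medians ranged from 0.25 to 0.36 (complex I), 0.26 to 0.47 (complex III), 0.29 to 0.45 (complex IV) and 0.20 to 0.31 (ATP synthase).

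The direction of change went with protein length, which the name rule did not use. Respiratory subunits are short: the tested members with a GENCODE M21 coding model had a median of 131 residues (52 to 727, 75 genes), against 459 residues for all genes tested, and the medians were 87.5 residues for complex IV, 100 for complex III, 144 for complex I and 154 for the ATP synthase. In dKO SNI against dKO sham ganglia, 22 of the 47 members under 150 residues rose and none fell, 1 of 18 between 150 and 300 residues rose and 2 fell, and none of the 10 over 300 residues rose and 7 fell. Genes outside the family moved with length as well. Of the 812 other genes under 150 residues 43.1% rose, and 40.7% without the cytosolic and mitochondrial ribosomal proteins, against 46.8% of the short members. Of the 9242 other genes over 300 residues 27.8% fell, against 70.0% of the long members. Spearman's rho between the change and coding length was −0.70 over 75 members and −0.19 over all 12726 genes with a length, given as a description, since all values come from the same 4 libraries.

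**Figure D4:**
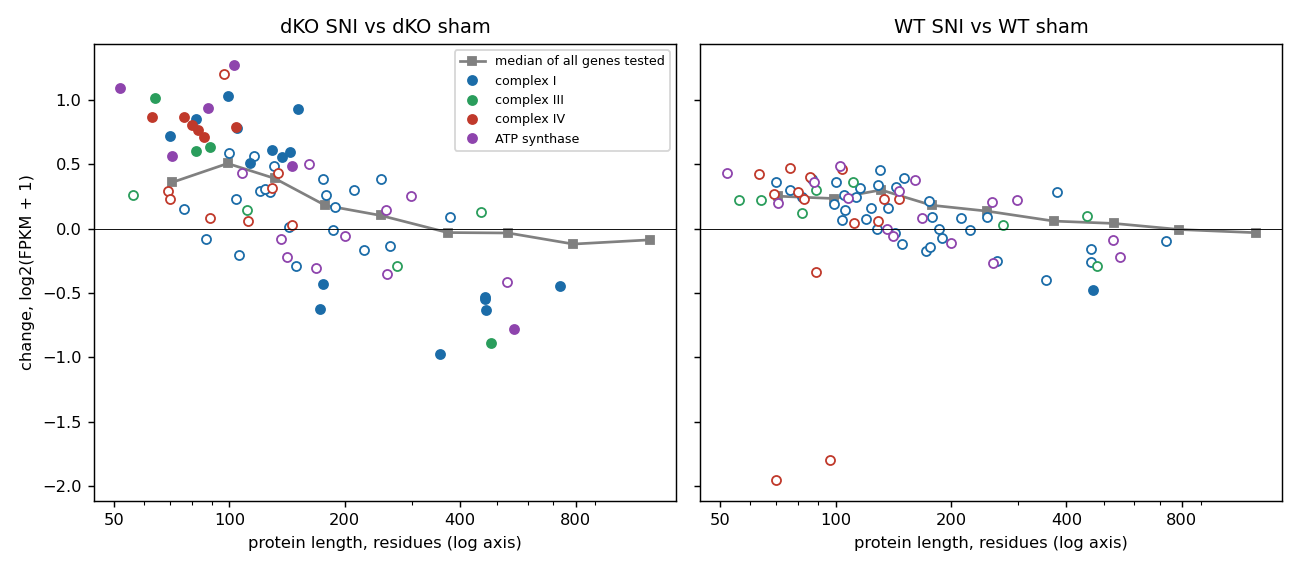
Change on the log2(FPKM + 1) scale against protein length in residues (log axis) for dKO SNI against dKO sham (left) and WT SNI against WT sham ganglia (right); points are respiratory genes, filled where they passed, and grey squares are medians of all genes tested in length bins. In the left panel the short members that passed lie above 0 and the long members that passed lie below 0, beside a falling grey line; Cox6a2 and Cox8b are the 2 points under −1.5 in the right panel, and Atp5o, with no single gene model, is not drawn.

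The spread by length was present between replicates too. Members under 150 residues deviated from their 8-library mean by a median of 0.33 and 0.58 in dKO SNI libraries, −0.22 and 0.13 in dKO sham, −0.26 and 0.06 in WT SNI and −0.16 and −0.45 in WT sham libraries. Members over 300 residues deviated by −0.22 and −0.44 in dKO SNI, 0.13 and 0.22 in dKO sham, 0.02 and 0.01 in WT SNI and 0.21 and 0.18 in WT sham libraries. All tested genes under 150 residues gave 0.28 and 0.41 in dKO SNI and −0.18 and 0.04 in dKO sham libraries, so short genes in general moved beside the short members. The part of this trend with length in the members' changes was not tested beyond its removal, given next.

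**Figure D5:**
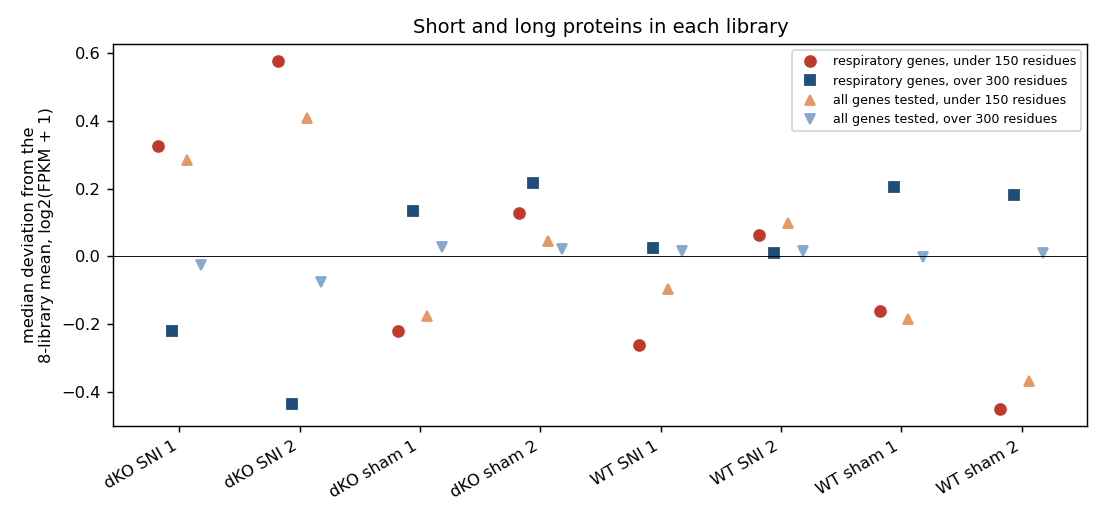
Median deviation from the 8-library mean on the log2(FPKM + 1) scale in each library, for respiratory genes and for all genes tested, under 150 and over 300 residues. Short respiratory genes and short genes of all kinds are highest in dKO SNI replicate 2 and lowest in WT sham replicate 2, and long respiratory genes are lowest in dKO SNI replicate 2.

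When each library's trend on transcript length was subtracted, a step chosen after seeing these values, 6 members rose and 23 fell in dKO SNI against dKO sham ganglia, against 24.9% and 24.6% of all genes. Atp5l, Atp5j2, Cox7b, Ndufb11, Ndufb2 and Uqcrq rose with and without this step, and the 9 genes that fell before also fell after it, joined by 14 more. The length used was that of the GENCODE transcript with the longest coding sequence. It was 4371 bases for Ndufb2 and 1521 for Uqcrq, against 544 for Atp5l, 908 for Ndufb11, 955 for Atp5j2 and 1001 for Cox7b. Ndufb2 and Uqcrq were thus treated as longer transcripts, and the part of this choice in their rise was not tested. The medians became −0.25 for complex I, −0.25 for complex III, 0.01 for complex IV and −0.03 for the ATP synthase. The direction of the complexes thus rested on the treatment of length. Complex IV stayed the highest of the 4 in this comparison, by a gap that was not tested. In WT SNI against WT sham ganglia and in both averages, the ATP synthase was the highest after this step. After the same step 0 members rose and 4 fell in WT SNI against WT sham ganglia (12.5% and 11.6% of all genes), and 6 were higher and 8 lower in dKO SNI against WT SNI ganglia (10.9% and 12.9%). In the averages, 4 were higher and 28 lower in SNI against sham over both genotypes (28.5% and 27.2%), and 3 were higher and 7 lower in dKO against WT over both operations (10.2% and 11.5%).

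Isoforms known from other tissues were minor in the ganglion. Cox6a2, the heart and muscle form of subunit VIa, had 3.32 and 6.27 FPKM in dKO SNI ganglia and 2.14 and 0.897 in dKO sham ganglia, against 0.350 and 2.50 in WT SNI ganglia and 1.08 and 26.3 in WT sham ganglia. WT sham replicate 2 was high alone, and there Cox6a2 made up 6.72% of the Cox6a1 and Cox6a2 total, against 0.0836% to 1.5% in the other libraries. Cox8b, another muscle form, had 1.20 and 0 FPKM in dKO SNI ganglia and 0 and 0.603 in dKO sham ganglia, against 0 and 0 in WT SNI ganglia and 0.594 and 8.39 in WT sham ganglia. Cox7a1, the muscle form of subunit VIIa, had 8.44 and 10.98 FPKM in dKO SNI ganglia and 8.496 and 9.67 in dKO sham ganglia, against 5.56 and 5.91 in WT SNI ganglia and 3.91 and 13.8 in WT sham ganglia. The common form Cox7a2 had 227 and 358 FPKM in dKO SNI ganglia and 139 and 201 in dKO sham ganglia, against 142 and 181 in WT SNI ganglia and 153 and 121 in WT sham ganglia. Cox6b1, the common partner of Cox6b2, had 817 and 976 FPKM in dKO SNI ganglia and 466 and 635 in dKO sham ganglia, against 525 and 657 in WT SNI ganglia and 484 and 406 in WT sham ganglia. Cox6a2, Cox8b and Cox7a1 were highest with Ckm in that library, and none passed a test in any comparison; the part of muscle RNA was not tested. Ndufa4l2, a relative of Ndufa4, had 1.24 and 1.72 FPKM in dKO SNI ganglia and 1.37 and 1.90 in dKO sham ganglia, against 0.945 and 1.45 in WT SNI ganglia and 0.547 and 0.810 in WT sham ganglia.

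Genes of the pathway outside the name rule were read from lists written by hand. In dKO SNI against dKO sham ganglia 23.8% of all genes rose and 24.6% fell, and the list counts stand beside these shares. Complex II, which feeds electrons from succinate, showed both directions in dKO SNI against dKO sham ganglia: Sdha, the large flavoprotein, fell by 0.77 ± 0.14 (SE; adjusted p = 0.0018) and Sdhb, the iron-sulfur subunit, rose by 0.54 ± 0.16 (SE; adjusted p = 0.02), and Sdhc and Sdhd did not pass. Sdha had 59.5 and 49.8 FPKM in dKO SNI ganglia, against 93.0 and 93.9 in dKO sham ganglia. Of 7 tested respiratory genes that the name rule leaves out, 2 rose and none fell (4 had an unadjusted p under 0.05): Usmg5, a small ATP synthase protein, by 1.34 ± 0.24 (SE; adjusted p = 0.002), and Atpif1, the ATP synthase inhibitor, by 0.75 ± 0.23 (SE; adjusted p = 0.024). Cox4i1 changed by 0.34 ± 0.19 (SE; adjusted p = 0.15).

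Of 49 assembly factors 7 rose and 7 fell (median −0.15), each a smaller part than the 23.8% and 24.6% of all genes. They were led by Atpaf1, which helps build the F1 head (−0.84 ± 0.12 (SE; adjusted p = 0.00063)), Cox16 (0.80 ± 0.15 (SE; adjusted p = 0.0025)) and Bcs1l, which inserts the Rieske protein (−0.65 ± 0.12 (SE; adjusted p = 0.0026)). Of 14 tested regulators of mitochondrial biogenesis 1 rose and 3 fell. Nrf1, the factor whose core motif is shown above, rose by 0.38 ± 0.13 (SE; adjusted p = 0.037), the estrogen-related receptor gene Esrrg changed by −0.94 ± 0.18 (SE; adjusted p = 0.0026) and Esrra by −0.38 ± 0.13 (SE; adjusted p = 0.039), and the deacetylase gene Sirt3 by −0.53 ± 0.17 (SE; adjusted p = 0.028). Ppargc1a, the coactivator PGC-1 alpha, gave −0.38 ± 0.15 (SE; adjusted p = 0.057). Mitochondrial ribosomal protein genes had 15 of 77 higher and 6 lower (median 0.17), both smaller parts than those of all genes. Cytosolic ribosomal protein genes had 75 of 79 higher and none lower (limma, 75 with an unadjusted p under 0.05, median 1.18).

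Markers of other cells moved with the same comparison, in which 23.8% of all genes rose and 24.6% fell. All 16 macrophage markers rose in dKO SNI against dKO sham ganglia, and their summed level was 1885 and 1896 FPKM in dKO SNI and 229 and 357 FPKM in dKO sham ganglia, against 808 and 1025 in WT SNI and 195 and 193 in WT sham ganglia. All 11 granule and neutrophil markers rose, with sums of 7136 and 6953 FPKM in dKO SNI, 698 and 1127 in dKO sham, 1278 and 2524 in WT SNI and 710 and 955 in WT sham ganglia. All 12 proliferation markers rose, 4 of 6 endothelial markers rose, and 13 of 20 pan-neuronal markers fell and 1, Gap43, rose, with neuronal sums of 6872 and 5349 FPKM in dKO SNI against 8795 and 9762 in dKO sham ganglia. Of 8 satellite glia markers 2 rose and 3 fell, and of 8 myelinating Schwann cell and 8 erythroid markers none passed in either direction (limma; 2 each had an unadjusted p under 0.05). No marker list was at 0 throughout: the brown fat list, with 1 of 6 genes at 0 in every library, summed to 2.25 to 5.64 FPKM. The part of these cells in the respiratory changes was not tested, and in whole ganglia a change in the number of cells of a type cannot be told apart from a change in RNA per cell.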

How the data were processed

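The authors deposited 1 table of FPKM values for 21878 gene symbols and 8 libraries of total RNA, made as paired-end libraries with a TruSeq kit per the labels' protocols. StringTie 1.3.0, HISAT2 2.0.4, edgeR and the mm10 and GRCm38.p4 builds are listed in the submitters' processing notes without their roles. The handling of multi-mapping reads and of strand is not given in the sources used here, so levels of members with processed pseudogenes are uncertain. Columns were matched to samples by the descriptions. Low values did not fall on whole-read steps (at most 3.56% of 534 low genes shared a ratio), so depth is unknown and no counts were used. No 2 libraries held identical values.

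FPKM values were tested as log2(FPKM + 1) in limma 3.58.1 (R 4.3.3), with 1 mean per group, 4 residual degrees of freedom, a trended prior, two-sided tests and Benjamini-Hochberg adjustment over 12884 genes with at least 1 FPKM in 2 libraries; the threshold was 0.05. The fit was also run on simulated data with independent noise for each gene and 200 genes changed. Those data held no trend with length shared between genes, so they cannot show how well the calls here are calibrated. Alternatives were another pseudocount, other filters, other scalings, 2-group fits, a replicate block, single libraries left out, a narrower membership and, added later, removal of a trend on transcript length (lowess span 0.3) and crossed WT sham numbers. Coordinates and lengths came from GENCODE M21 (GRCm38) for 77 of 78 members, and promoters from RefSeq. The members and lists were chosen with earlier results of these data known. Members given in every library were the highest of each complex, the 2 with the smallest p in each injury comparison, the largest called changes and the isoform pairs. Same-numbered libraries' deviations correlated between −0.188 and 0.254. Pairing by number was therefore not shown, 2 libraries a group cannot settle it, and the main fit used no pairing.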

Additional observations from a re-analysis of the deposited data

How the results depend on the processing

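Over the 7 comparisons, direction of the complex medians depended most on transcript length (dKO injury and WT injury stand for SNI against sham within a genotype). With that trend removed the medians were −0.25 (complex I), −0.25 (complex III), 0.015 (complex IV), −0.034 (ATP synthase) in dKO injury, −0.18 (complex I), −0.10 (complex III), −0.097 (complex IV), −0.029 (ATP synthase) in WT injury, −0.14 (complex I), −0.061 (complex III), 0.13 (complex IV), 0.053 (ATP synthase) in dKO SNI against WT SNI, −0.0075 (complex I), 0.096 (complex III), 0.014 (complex IV), 0.0035 (ATP synthase) in dKO sham against WT sham, −0.049 (complex I), −0.15 (complex III), 0.12 (complex IV), −0.018 (ATP synthase) in the interaction, −0.23 (complex I), −0.17 (complex III), −0.088 (complex IV), −0.023 (ATP synthase) in the average of SNI against sham and −0.080 (complex I), 0.018 (complex III), 0.021 (complex IV), 0.037 (ATP synthase) in the average of dKO against WT. The trend removal also turned members round: in dKO SNI against dKO sham Atp5g2 became −0.021, Atp5k −0.34, Cox6b2 −0.080, Ndufa1 −0.11, Ndufa7 −0.19, Ndufb7 −0.043 and Uqcrh −0.046, and in the average of SNI against sham Atp5g2 became −0.017, Atp5k −0.30, Cox6b2 −0.031, Ndufa1 −0.091, Ndufa3 −0.23, Ndufa6 −0.021, Ndufa7 −0.16 and Uqcrh −0.058; the cause was not tested. With libraries set to the same FPKM total the medians were 0.072 (complex I), 0.017 (complex III) in dKO injury, −0.039 (complex I), 0.043 (complex III) in WT injury, 0.28 (complex I), 0.23 (complex III) in dKO SNI against WT SNI, 0.23 (complex III) in dKO sham against WT sham, −0.024 (complex III) in the interaction, 0.029 (complex I), 0.090 (complex III) in the average of SNI against sham and 0.28 (complex III) in the average of dKO against WT, and the counts were 15 higher and 13 lower in dKO injury, 0 higher and 3 lower in WT injury, 12 higher and 5 lower in dKO SNI against WT SNI, 11 higher and 14 lower in the average of SNI against sham and 14 higher and 3 lower in the average of dKO against WT. After quantile normalization they were −0.022 (complex III), 0.23 (complex IV), 0.041 (ATP synthase) in dKO injury, 0.059 (complex III), −0.047 (ATP synthase) in WT injury, 0.24 (complex III) in dKO SNI against WT SNI, −0.022 (complex III) in the interaction, 0.016 (complex III) in the average of SNI against sham and 0.25 (complex III) in the average of dKO against WT, with 11 higher and 11 lower in dKO injury, 0 higher and 3 lower in WT injury, 13 higher and 10 lower in averaged injury and 16 higher and 2 lower in averaged genotype. Median centring gave 0.12 (complex III) in WT injury, 0.25 (complex III) in dKO sham against WT sham and 0.10 (complex III) in the interaction. With no filter on low values 9 higher and 9 lower passed in dKO injury, 1 higher and 1 lower in dKO SNI against WT SNI, 15 higher and 10 lower in averaged injury and 0 higher and 1 lower in averaged genotype. Of the 17956 genes then tested, the counts were 3180 and 3078, 884 and 1008, 4120 and 3320, and 642 and 500 in that order. Quantile normalization gave 2940 and 3305 of 12884 genes in dKO injury and 1308 and 1541 in WT injury. It gave 3263 and 3679 in averaged injury and 1329 and 1465 in averaged genotype. A pseudocount of 0.1 gave 0 higher and 2 lower in WT injury (1815 and 1141 of 12884 genes), and the fit of only the 2 groups gave 10 higher and 1 lower in dKO SNI against WT SNI (1087 and 1108 of 12884 genes). Libraries set to the same FPKM total gave 2277 and 4199 of 12884 genes in dKO injury and 1369 and 1731 in WT injury. They gave 1083 and 2522 in dKO SNI against WT SNI, 2800 and 4371 in averaged injury and 1200 and 2149 in averaged genotype. With the length trend removed the counts were 6 higher and 23 lower in dKO injury, 0 higher and 4 lower in WT injury, 6 higher and 8 lower in dKO SNI against WT SNI, 4 higher and 28 lower in averaged injury and 3 higher and 7 lower in averaged genotype.

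The replicate block gave 20 higher and 9 lower in dKO injury and 17 higher and 2 lower in dKO SNI against WT SNI and changed no count by over 1.5 times. With the WT sham numbers crossed, a step chosen after seeing these data, the paired fit gave 32 higher and 10 lower in dKO injury, 7 higher and 2 lower in WT injury, 35 higher and 4 lower in dKO SNI against WT SNI and 39 higher and 2 lower in averaged genotype. Calls of all 12884 genes rose as well, to 3265 and 3289, 2158 and 1415, 1743 and 2067, and 1934 and 1661 in that order. Because of how the step was chosen, larger counts are no evidence for crossed numbers.

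Leaving out 1 library at a time left a group with 1 sample, assumed to vary like the others. Calls of all genes tested moved under these omissions as well, so the ranges of counts are not particular to the members. In dKO injury it gave 2 to 22 higher, 5 to 11 lower and medians of 0.091 to 0.37 (complex I), 0.18 to 0.32 (complex III), 0.38 to 0.71 (complex IV), 0.12 to 0.42 (ATP synthase). In WT injury it gave 0 to 0 higher, 0 to 3 lower and medians of −0.044 to 0.27 (complex I), −0.022 to 0.31 (complex III), 0.081 to 0.39 (complex IV), 0.069 to 0.26 (ATP synthase). In dKO SNI against WT SNI it gave 0 to 21 higher, 0 to 4 lower and medians of 0.24 to 0.50 (complex I), 0.28 to 0.50 (complex III), 0.49 to 0.77 (complex IV), 0.18 to 0.42 (ATP synthase). In dKO sham against WT sham it gave 0 to 0 higher, 0 to 2 lower and medians of 0.052 to 0.35 (complex I), 0.13 to 0.43 (complex III), 0.070 to 0.38 (complex IV), −0.022 to 0.37 (ATP synthase). In the interaction it gave 0 to 1 higher, 0 to 0 lower and medians of −0.025 to 0.32 (complex I), −0.12 to 0.19 (complex III), 0.16 to 0.55 (complex IV), −0.065 to 0.19 (ATP synthase). In the average of SNI against sham it gave 5 to 27 higher, 6 to 9 lower and medians of 0.092 to 0.26 (complex I), 0.14 to 0.36 (complex III), 0.23 to 0.38 (complex IV), 0.16 to 0.32 (ATP synthase). In the average of dKO against WT it gave 0 to 28 higher, 0 to 3 lower and medians of 0.25 to 0.36 (complex I), 0.26 to 0.47 (complex III), 0.29 to 0.45 (complex IV), 0.20 to 0.31 (ATP synthase).

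Read depth limits low members such as Cox6b2 and Ndufa4l2 by an unknown amount, and with 2 libraries a group small changes were not detectable.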
